A study of Mus musculus with 18 samples.

Results

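Eph receptors and their ephrin ligands, netrins with the receptors Dcc, neogenin and Unc5, Slits with their Robo receptors, Draxin and the repulsive guidance molecules are the contact and secreted cues that steer growing axons. The 41 genes described here are the members of these families on a given list: 9 Eph receptors of the A class, 5 of the B class, 5 ephrin-A and 3 ephrin-B ligands, 2 netrins, 2 netrin-G genes, 6 netrin receptors, 3 Slits, 3 Robos, Draxin and 2 repulsive guidance molecules. They were matched by symbol to the 54532 genes of the count table, and all 41 were found. The study sequenced RNA from frontal cortex of mouse pups at postnatal day 0, dissected into orbital, medial and dorsal pieces. Pups were either control or carried mutations in both Rxrg and Rarb, which encode the retinoid receptors RXRg and RARb, and the double mutants are called dKO below. Each of the 6 combinations of region and genotype had 3 libraries, 18 in all. The labels give neither the alleles, the strain, the sex nor the number of pups behind a library, and the design text names medial frontal, motor and orbitofrontal dissections without saying which label is the motor one.

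The libraries fell into 6 rows, a row being an orbital, a medial and a dorsal library with the same title prefix and index. Rows were paired here into 3 sets, each of 1 control and 1 dKO row of the same prefix, in the order of their indexes. The labels do not state this pairing, and the comparisons by set below depend on it. Whether a row is 1 brain is not stated, so p-values measure the spread between these libraries. Depth ran from 28957325 to 93093398 fragments assigned to genes. Every library of set 1 had at least 52317649 and no library of sets 2 and 3 had more than 39158792. Rarb was at 3.50 to 13.9 CPM (counts scaled to the library's assigned fragments) in control and at 1.19 to 4.85 CPM in dKO libraries, and the dKO library was lower than the control of its set and region in 9 of 9 pairs. Rxrg was at 1.64 to 30.5 CPM in control and at 0.377 to 2.90 CPM in dKO libraries, lower in 8 of 9 pairs. The 6 dKO libraries of sets 1 and 3 held Xist at 9.45 CPM or more and Ddx3y at 0.203 CPM or less, and in the other 12 libraries Xist stayed at or under 0.155 CPM and Ddx3y at or over 58.3 CPM. Every control library was therefore male by these genes, and sex and genotype were separated only in set 2. Libraries of 1 group were not copies of each other, since the lowest chi-square per degree of freedom between 2 of them was 41.8.

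A-class Eph receptors bind the lipid-anchored ephrin-A ligands and B-class receptors the transmembrane ephrin-B ligands, with Epha4 binding both. Netrin-1 attracts axons that carry Dcc and repels those with Unc5 receptors, while Slits repel axons through Robo receptors, and Draxin and the Rgm proteins bind Dcc and neogenin. In the cortex around birth, graded Eph and ephrin levels help to sort thalamic and cortical axons, and Robo and Netrin signalling guides callosal and corticofugal fibres.

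To compare levels between genes, CPM was divided by each gene's summed exon length in kilobases (FPKM). By the median over the 18 libraries, 15 members were at 10 FPKM or more, 14 were between 1 and 10 FPKM and 12 were under 1 FPKM. The highest median level per length was that of Efnb2, a transmembrane ligand for Ephb receptors and Epha4, at 40.4 FPKM with libraries from 27.95 to 46.02 FPKM. Ephb6, a B-class receptor whose kinase domain lacks activity, followed at 35.3 FPKM (19.9 to 63.5), then the ligand Efnb3 at 33.4 (25.2 to 61.9), Neo1 at 30.8 (13.2 to 44.9) and Rgmb at 23.9 FPKM (15.3 to 28.3). The ranges of these 5 genes over all libraries overlap. Their order within libraries was not compared, except that Efnb2 was above Rgmb in every library.

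**Figure D1:**
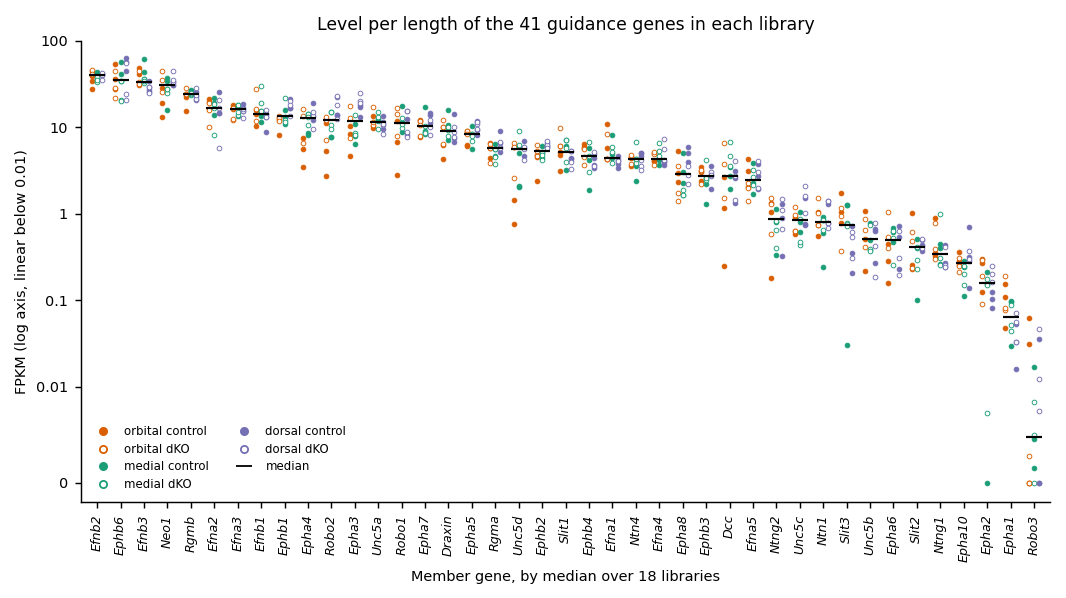
FPKM of the 41 members (log axis, linear below 0.01) in each of the 18 libraries; filled points are control, open points dKO, colour is the region and black bars are medians. Efnb2 leads at a median of 40.4 FPKM, 15 genes sit at or above 10 FPKM, and Robo3 lies at the bottom with a median of 0.00473 FPKM.

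Among the A-class receptors Epha4 (12.7 FPKM), Epha3 (11.8) and Epha7 (10.4) had the highest medians, and Epha5 followed at 8.44 FPKM. Epha6, Epha10, Epha2 and Epha1 were under 1 FPKM, and Epha1 had no more than 36 fragments in any library. B-class receptors were all above 1 FPKM, with Ephb1 at 13.3, Ephb2 at 5.28, Ephb4 at 4.6 and Ephb3 at 2.76 FPKM. Ephrin-A ligands ran from Efna2 at 16.6 and Efna3 at 16.2 FPKM down to Efna5 at 2.46 FPKM, and Efnb1 stood at 14.2 FPKM. Ntn4, at 4.28 FPKM, was the higher of the 2 netrins, and Ntn1 was at 0.808 FPKM. Of the netrin receptors, Unc5a was at 11.6, Unc5d at 5.66 and Dcc at 2.75 FPKM, while Unc5c (0.842) and Unc5b (0.508) were under 1 FPKM. Robo2 (12.2 FPKM) and Robo1 (11.1) were far above Robo3, a receptor of commissural neurons in the hindbrain and spinal cord, which had no more than 39 fragments in a library and 0 in 6 of 18. Slit1 was the highest Slit at 5.22 FPKM, with Slit3 at 0.739 and Slit2 at 0.409 FPKM. Robo3 did not pass the filter on low counts in the 18-library fits, so 40 of the 41 members were tested there.

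The widest spread among the members above 1 FPKM was that of Dcc, whose lowest and highest libraries differed 27.4-fold. Unc5d differed 11.9-fold and Robo2 8.27-fold between their lowest and highest libraries. For Efna3 the same ratio was 1.52 and for Efnb2 it was 1.65. Exons of 11 members overlap another annotated gene. The overlap is largest for Efna3 with Gm15998 (14.1% of its exon bases, opposite strand), Ntng2 with 6530402F18Rik (14.0%, same strand) and Efna4 with 4731419I09Rik (10.5%, opposite strand). Counting ignored strand, so reads within the shared bases of an opposite-strand pair cannot be told apart. Strand would not separate those of the same-strand pair. Reads outside the shared bases are not affected.

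Both mutated genes encode receptors that bind DNA. Retinoid receptors bind paired half-sites of the form AGGTCA, the form GGGTCA, the form AGTTCA or the form GGTTCA, so the 250 bases before RefSeq starts were searched on both strands. RefSeq promoter windows (GRCm38.p6) matched 35 of the 41 members and gave 42 windows, and the other 6 were not searched. A RefSeq start can differ from the gene start given with a member's values, which comes from the deposited table, so some windows reach into the gene as that table places it, that of Ephb6 among them. Direct repeats of these half-sites with a spacing of 1, 2 or 5 bases were found in 0 of the 42, and in 0.164%, 0.174% and 0.0883% of all 32851 windows. A single half-site of any of the 4 forms was in 9 of 42 member windows (21.4%), beside 38.6% of all windows. The GC box GGGCGG, a motif of promoters rich in G and C, was in 30 of 42 (71.4%), beside 32.7% of all windows. A GC box and a half-site that starts with G can share bases, and a match is a description of these letters and no evidence of binding. Shown are Ephb6, the member called in dKO, Epha3, the member called with the lowest p between medial and dorsal cortex, and Ephb2, the member called between regions whose window holds a half-site, each 5′ to 3′ on the gene's strand with half-sites and GC boxes in capitals. The window of Ephb6 (chr6:41605261-41605510, plus strand) has 5 GC boxes and no half-site, that of Epha3 (chr16:63864176-63864425, minus strand) has neither motif, and that of Ephb2 (chr4:136836013-136836262, minus strand) has 1 half-site that begins 176 bases before the RefSeq start.
Ephb6: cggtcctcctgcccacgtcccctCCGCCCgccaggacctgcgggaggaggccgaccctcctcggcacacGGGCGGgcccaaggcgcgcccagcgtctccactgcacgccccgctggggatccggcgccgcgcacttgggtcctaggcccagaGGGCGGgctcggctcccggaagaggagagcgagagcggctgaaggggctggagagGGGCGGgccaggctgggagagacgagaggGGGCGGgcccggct
Epha3: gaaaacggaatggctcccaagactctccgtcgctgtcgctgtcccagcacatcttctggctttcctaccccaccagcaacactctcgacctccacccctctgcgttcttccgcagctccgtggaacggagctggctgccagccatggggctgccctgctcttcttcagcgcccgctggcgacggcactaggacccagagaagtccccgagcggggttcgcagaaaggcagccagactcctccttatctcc
Ephb2: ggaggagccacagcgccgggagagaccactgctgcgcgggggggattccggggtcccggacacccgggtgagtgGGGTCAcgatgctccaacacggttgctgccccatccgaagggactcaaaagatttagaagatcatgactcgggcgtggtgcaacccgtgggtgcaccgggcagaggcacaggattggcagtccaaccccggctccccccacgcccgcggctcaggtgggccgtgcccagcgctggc

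The first question was which guidance genes differ between cortical regions at birth. Averaged over both genotypes and taken within rows, 6 members were lower and 1 was higher in medial than in dorsal cortex, and 9 were lower and 1 was higher in orbital than in dorsal cortex. In medial cortex the receptors Epha3, Epha5, Epha8, Robo2 and Unc5c and the ligand Ntn1 fell and the ligand Efnb3 rose. In orbital cortex the receptors Epha3, Epha4, Epha5, Epha8, Ephb1, Ephb2, Robo2, Unc5c and Unc5d fell and Efnb3 rose. Both comparisons use the same dorsal libraries, so they are not separate evidence of one pattern. Among all 18730 genes tested, 4.12% passed in medial minus dorsal (1.65% higher and 2.47% lower) and 11.6% in orbital minus dorsal (4.62% higher and 6.99% lower). Against these backgrounds, 7 of 40 and 10 of 40 members passed, with edgeR's quasi-likelihood test and an adjusted p under 0.05. The median log2 difference over the 40 members was -0.16 in medial minus dorsal and -0.19 in orbital minus dorsal, and over all genes it was 0.02 in each. The orbital control library of set 3 was the lowest of all 18 for 15 of the 41 members (Epha3, Epha4, Epha7, Ephb1, Ephb2, Efnb2, Ntng2, Dcc, Neo1, Unc5d, Slit1, Robo1, Robo2, Draxin and Rgmb) and in the summed cortical neuron markers, at 1374 CPM. The share of all genes that were lowest in this library was not counted, so the 15 are not shown to be particular to the members. Without its row, 4 members passed in medial minus dorsal (Epha3, Epha5, Robo2 and Unc5c) and 6 in orbital minus dorsal (Epha3, Epha4, Epha5, Ephb2, Robo2 and Unc5c). Without dKO row 1 or without dKO row 2, 2 members passed in medial minus dorsal (Epha3 and Unc5c each time), and without dKO row 1, 4 passed in orbital minus dorsal (Epha3, Epha4, Epha5 and Robo2). Without dKO row 3, 6 passed in orbital minus dorsal, Efnb3 and 5 receptors. Without the row term, Epha3 alone passed in each comparison. Calls over all genes fell as well. In medial minus dorsal, 772 of 18730 passed with every row. There were 522 of 19352 without control row 3, 226 of 18885 without dKO row 1 and 301 of 19268 without dKO row 2. In orbital minus dorsal, 2175 of 18730 passed with every row. There were 1102 of 19352 without control row 3, 478 of 18885 without dKO row 1 and 778 of 19375 without dKO row 3. Without the row term, 224 and 330 of 18730 genes passed.

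**Figure D2:**
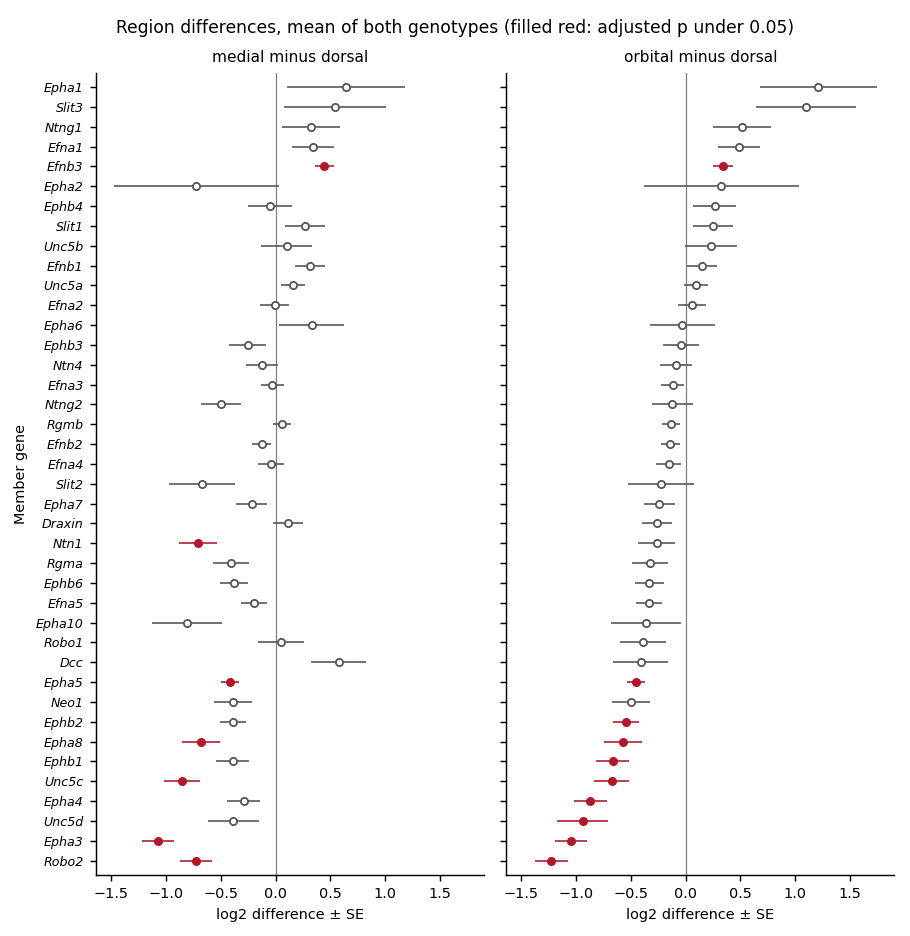
Log2 differences (± SE) of the 40 members tested, medial minus dorsal on the left and orbital minus dorsal on the right, averaged over genotypes; red filled points have an adjusted p under 0.05. Red points number 7 on the left and 10 on the right, and Efnb3 is the red point above 0 in each panel.

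Several marker lists moved with the orbital comparison. Of 7 cortical projection neuron markers, 3 were lower and 0 higher in orbital than in dorsal cortex, and their summed level was 1374 to 2133 CPM in orbital control, 2062 to 2147 in orbital dKO, 1876 to 2529 in dorsal control and 1861 to 2172 CPM in dorsal dKO libraries. Of 7 meningeal fibroblast markers, 2 were higher, with a sum of 1683 to 2449 CPM in orbital control against 949 to 1142 CPM in dorsal control libraries, and 894 to 1610 CPM in orbital dKO against 1139 to 1661 CPM in dorsal dKO libraries. Of 7 microglial markers, 4 were higher, with sums of 206 to 233 CPM in orbital control and 103 to 116 CPM in dorsal control libraries, and 109 to 178 and 115 to 165 CPM in the dKO libraries of the same regions. Ensheathing glia markers summed to 203 to 386 CPM in orbital control and to 91.1 to 129 CPM in orbital dKO libraries, and to 124 to 231 CPM in dorsal control and 221 to 281 CPM in dorsal dKO libraries. Their marker Foxd3 was at 0 in every group except orbital control. Of the 5 ensheathing glia markers, 4 were tested, with 2 higher and 1 lower in orbital than in dorsal cortex. Of 5 blood markers 4 were tested and all 4 were higher, with sums of 1681 to 2129 CPM in orbital control and 575 to 1172 CPM in dorsal control libraries, and 827 to 2395 and 951 to 1689 CPM in the dKO libraries of the same regions. Of 8 cell cycle markers 4 were higher, with sums of 105 to 164 CPM in orbital control, 62.3 to 171 in dorsal control, 189 to 297 in orbital dKO and 153 to 198 CPM in dorsal dKO libraries. Of 8 progenitor markers 3 were higher, with sums of 280.2 to 368 and 176 to 246 CPM in the controls and 285 to 451 and 268 to 307 CPM in the dKO libraries of orbital and dorsal cortex. Of 8 striatal projection neuron markers 3 were higher and 2 lower, and of 7 interneuron markers 2 were higher and 1 lower. Thalamic and astrocyte markers had 1 call each, both higher, and oligodendrocyte lineage and vascular markers had 0.

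In medial minus dorsal, 2 of the cortical projection neuron markers were higher and 3 lower, with sums of 1969 to 2748 CPM in medial control and 2025 to 2410 CPM in medial dKO libraries. Of the striatal markers 2 were lower, with sums of 165 to 281 CPM in medial control, 236 to 338 in dorsal control, 164 to 190.3 in medial dKO and 293 to 302 CPM in dorsal dKO libraries. Foxp1 and Ppp1r1b had the highest means of this list in both control groups. Foxp1 was at 97.2 CPM in medial and 145 CPM in dorsal control, and Ppp1r1b at 59.9 and 83.0 CPM. Drd1 did not follow in controls, at 43.8 and 40.9 CPM. Single calls were seen for progenitor and cell cycle markers (higher) and for interneuron and ensheathing glia markers (lower). The part of all these cells in the members' differences was not tested, and in bulk tissue fewer cells of a type and less RNA per cell cannot be told apart. Library values below are listed in the order of sets 1, 2 and 3.

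Among the Eph receptors, Epha3, a receptor for ephrin-A ligands (16:63543534-63864175, minus strand), was the member with the lowest p between medial and dorsal cortex. It was at 149, 157 and 114 CPM in dorsal control libraries and at 175, 217 and 165 CPM in dorsal dKO libraries. Medial libraries held 68.8, 94.8 and 54.9 CPM in controls and 121, 74.3 and 71.1 CPM in dKO, and orbital libraries 71.7, 90.4 and 40.1 and 111, 152 and 65.99 CPM. In every row the dorsal library was the highest of the 3, although the ranges over all rows overlap. The log2 difference was -1.07 (SE 0.15, adjusted p = 0.00109, lower in 6 of 6 rows) for medial and -1.05 (SE 0.15, adjusted p = 0.00093, lower in 6 of 6 rows) for orbital against dorsal cortex.

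Epha5, also an ephrin-A receptor (5:84054761-84417382, minus strand), showed the smallest difference of the receptors that fell. Its levels were 135, 195 and 153 CPM in dorsal control, 185, 191 and 161 in dorsal dKO, 94.3, 175 and 139 in medial control and 117, 139.8 and 131 CPM in medial dKO libraries. In orbital cortex they were 105, 153 and 102 CPM in control and 143, 149.8 and 139 CPM in dKO libraries. All 6 rows had the dorsal library highest, while libraries of different rows overlapped between regions. Medial minus dorsal was -0.42 (SE 0.08, adjusted p = 0.0106), a call lost without dKO row 1 or dKO row 2, and orbital minus dorsal was -0.45 (SE 0.08, adjusted p = 0.00423).

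Epha4 (1:77367185-77515088, minus strand), the receptor that binds ligands of both classes, passed in orbital cortex. Dorsal libraries held 109, 153 and 97.6 CPM in controls and 108, 119.9 and 76.5 CPM in dKO. Orbital libraries held 44.8, 61.1 and 27.9 CPM in controls and 108, 129 and 52.9 CPM in dKO, and medial libraries 69.01, 115 and 65.4 and 114, 86.5 and 107 CPM. The 3 orbital control libraries were below every other group's libraries but for 1 orbital dKO library at 52.9 CPM. Orbital minus dorsal was -0.87 (SE 0.15, adjusted p = 0.00335), while medial minus dorsal did not pass.

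Epha8 (4:136929419-136956816, minus strand) is a less abundant A-class receptor. It was counted at 23.6, 28.1 and 18.9 CPM in dorsal control, 16.6, 10.3 and 13.03 in dorsal dKO, 10.8, 23.6 and 14.2 in medial control and 7.82, 8.89 and 7.795 CPM in medial dKO libraries, and at 13.9, 24.8 and 11.03 and 16.95, 8.16 and 6.55 CPM in orbital control and dKO libraries. It lay near the threshold in medial minus dorsal (-0.68, SE 0.18, adjusted p = 0.0449) and orbital minus dorsal (-0.57, SE 0.17, adjusted p = 0.0498). Leaving out any 1 of the 6 rows ended either call, with adjusted p reaching 0.415 and 0.806 over the alternatives.

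For the B-class receptors the fall was seen in orbital cortex. Ephb1 (9:101922128-102354693, minus strand) was at 149, 116 and 117 CPM in dorsal control and 142, 94.998 and 127 CPM in dorsal dKO libraries. Orbital libraries held 88.9, 84.4 and 56.5 CPM in controls and 94.5, 90.6 and 82.2 CPM in dKO, and medial libraries 75.5, 111 and 91.98 and 84.7, 79.5 and 151 CPM. The highest orbital library (94.49 CPM) and the lowest dorsal one (94.998 CPM) did not quite overlap. Orbital minus dorsal was -0.67 (SE 0.15, adjusted p = 0.0152), and the call was lost without dKO row 1 or control row 3.

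Ephb2 (4:136647539-136835988, minus strand), a receptor needed for commissural axons of the forebrain, was at 83.6, 75.6 and 75.1 CPM in dorsal control and 77.9, 86.7 and 72.4 CPM in dorsal dKO libraries. Orbital cortex held 57.003, 60.9 and 30.2 CPM in controls and 67.6, 79.2 and 57.9 CPM in dKO, and medial cortex 56.3, 75.5 and 63.6 and 53.3, 65.6 and 59.4 CPM. The dorsal library was the highest of its row in 6 of 6 rows. Orbital minus dorsal was -0.54 (SE 0.12, adjusted p = 0.013), a call lost without dKO row 1 or dKO row 3, and medial minus dorsal was -0.39 (adjusted p = 0.0853). Over the 14 Eph receptors tested, 7 of 9 A-class genes and 5 of 5 B-class genes had a negative medial minus dorsal value, and 7 of 9 and 4 of 5 a negative orbital minus dorsal value, with 3 and 0 called lower in the first and 4 and 2 in the second.

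Of the 8 ephrins, 1 passed in the comparisons with dorsal cortex. Efnb3 (11:69554092-69560205, minus strand), a transmembrane ligand that acts as a midline barrier for corticospinal axons, was higher outside dorsal cortex. Dorsal libraries held 80.5, 86.1 and 108 CPM in controls and 92.1, 80.1 and 93.7 CPM in dKO. Medial libraries held 137, 116 and 197 and 114, 104 and 110.004 CPM, and orbital libraries 132, 98.1 and 152 and 141, 105 and 102 CPM. The dorsal library was the lowest of its row in 6 of 6 rows. Medial minus dorsal was 0.44 (SE 0.09, adjusted p = 0.0123) and orbital minus dorsal 0.34 (SE 0.09, adjusted p = 0.0255), and both calls were lost without dKO row 1, dKO row 2 or control row 3, the second also without control row 1. Efnb2 (8:8617434-8661242, minus strand), the ligand with the highest level, was at 284, 281 and 277 CPM in dorsal control and 277, 243 and 289.8 CPM in dorsal dKO libraries. It was at 250.1, 285 and 301 and 263, 228 and 241 CPM in medial and 267, 237 and 192 and 306, 315 and 286 CPM in orbital control and dKO libraries. These values overlap between all regions, and Efnb2 passed in no comparison averaged over genotypes. None of the 5 ephrin-A ligands passed in either comparison with dorsal cortex.

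Of the 6 netrin receptors tested, 1 was lower in medial than in dorsal cortex (Unc5c) and 2 were lower in orbital cortex (Unc5c and Unc5d), with 0 higher in either. Unc5a and Unc5b passed in neither, and their mean differences over the rows were 0.21 and 0.199 in medial minus dorsal and 0.17 and 0.33 in orbital minus dorsal. Unc5c (3:141465216-141834924, plus strand), which mediates repulsion by netrin-1, was at 14.3, 28.9 and 14.4 CPM in dorsal control and 30.9, 39.8 and 19.3 CPM in dorsal dKO libraries. Medial libraries held 11.7, 20.2 and 15.5 and 16.7, 8.35 and 8.897 CPM, and orbital libraries 12.1, 17.4 and 11.2 and 18.6, 22.97 and 12.01 CPM. The 3 dorsal dKO libraries included the 2 highest of all 18. Medial minus dorsal was -0.86 (SE 0.16, adjusted p = 0.00914) and orbital minus dorsal -0.67 (SE 0.16, adjusted p = 0.0179), the second call lost without dKO row 1, dKO row 3 or control row 2. Both calls were also lost with control rows alone and without the row term. By row, medial minus dorsal was -0.29, -0.52 and 0.11 in control and -0.89, -2.25 and -1.11 in dKO rows.

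Unc5d (8:28646717-29219636, minus strand), a receptor expressed by migrating upper-layer neurons, was at 53.2, 63.7 and 43.1 CPM in dorsal control and 51.2, 55.1 and 38.03 CPM in dorsal dKO libraries. Orbital libraries held 13.4, 53.97 and 6.93 CPM in controls and 60.5, 53.9 and 23.7 CPM in dKO, and medial libraries 18.7, 46.02 and 19.2 and 82.6, 55.2 and 57.3 CPM. The orbital and medial controls of sets 1 and 3 were the 4 lowest of the 18 libraries, at 6.93 to 19.2 CPM. Orbital minus dorsal was -0.94 (SE 0.23, adjusted p = 0.0218), a call kept without control row 2 and lost without any 1 of the other 5 rows. Neo1 (9:58874687-59036441, minus strand), the receptor for Rgm proteins, did not pass in any comparison averaged over genotypes and was at 293, 269 and 267 CPM in dorsal control, 289, 387 and 308 in dorsal dKO, 139, 319 and 298 in medial control, 215, 244 and 242 in medial dKO, 164, 246 and 115 in orbital control and 306, 391 and 222 CPM in orbital dKO libraries.

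Of the ligands, Ntn1 (11:68209364-68400823, minus strand), which encodes netrin-1, was at 4.84, 8.702 and 8.09 CPM in dorsal control and 4.84, 8.81 and 4.27 CPM in dorsal dKO libraries. Medial libraries held 1.504, 5.77 and 3.76 and 5.31, 5.305 and 4.12 CPM, and orbital libraries 3.45, 6.62 and 4.62 and 6.31, 9.45 and 4.64 CPM. The ranges overlap across all 3 regions. Medial minus dorsal was -0.71 (SE 0.17, adjusted p = 0.0336), a call kept without control row 2 and lost without any 1 of the other 5 rows. Ntn4 (10:93640681-93747207, plus strand), a netrin of basement membranes, did not pass and stood at 18.7, 17.3 and 19.02, then 13.5, 11.9 and 15.8 CPM in dorsal control and dKO, 16.01, 13.4 and 8.91, then 25.2, 14.4 and 16.1 CPM in medial control and dKO, and 16.8, 16.6 and 13.2, then 16.9, 17.6 and 14.1 CPM in orbital control and dKO libraries.

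Robo2 (16:73891839-74411825, minus strand), a Slit receptor, had the lowest p of all members between orbital and dorsal cortex. It was at 236, 379 and 237 CPM in dorsal control and 311, 387 and 212 CPM in dorsal dKO libraries. Orbital libraries held 89.97, 192 and 46.8 CPM in controls and 203, 225 and 119 CPM in dKO, and medial libraries 131, 252 and 132 and 254, 178 and 164 CPM. The dorsal library was the highest of its row in 6 of 6 rows, and the order orbital, medial, dorsal held in 5 of 6 rows, the exception being dKO row 2. Orbital minus dorsal was -1.22 (SE 0.15, adjusted p = 0.000394) and medial minus dorsal -0.73 (SE 0.15, adjusted p = 0.0135), the second call lost without dKO row 1 or dKO row 2. Slit1 (19:41600257-41743665, minus strand), a Robo ligand, passed in neither and was at 31.4, 26.4 and 25.2 CPM in dorsal control, 31.8, 19.7 and 23.2 in dorsal dKO, 19.1, 42.5 and 36.2 in medial control, 34.2, 23.8 and 42.4 in medial dKO, 28.1, 30.5 and 18.2 in orbital control and 57.9, 36.3 and 35.7 CPM in orbital dKO libraries. Draxin and the 2 Rgm genes did not pass either. Rgmb (17:15803188-15831039, minus strand), a ligand of Neo1, was at 175, 194 and 157 CPM in dorsal control, 163, 215 and 183 in dorsal dKO, 204, 200.4 and 202 in medial control, 179.6, 183 and 192 in medial dKO, 172, 183 and 117 in orbital control and 187, 217 and 183 CPM in orbital dKO libraries, a range shared by the 3 regions.

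**Figure D3:**
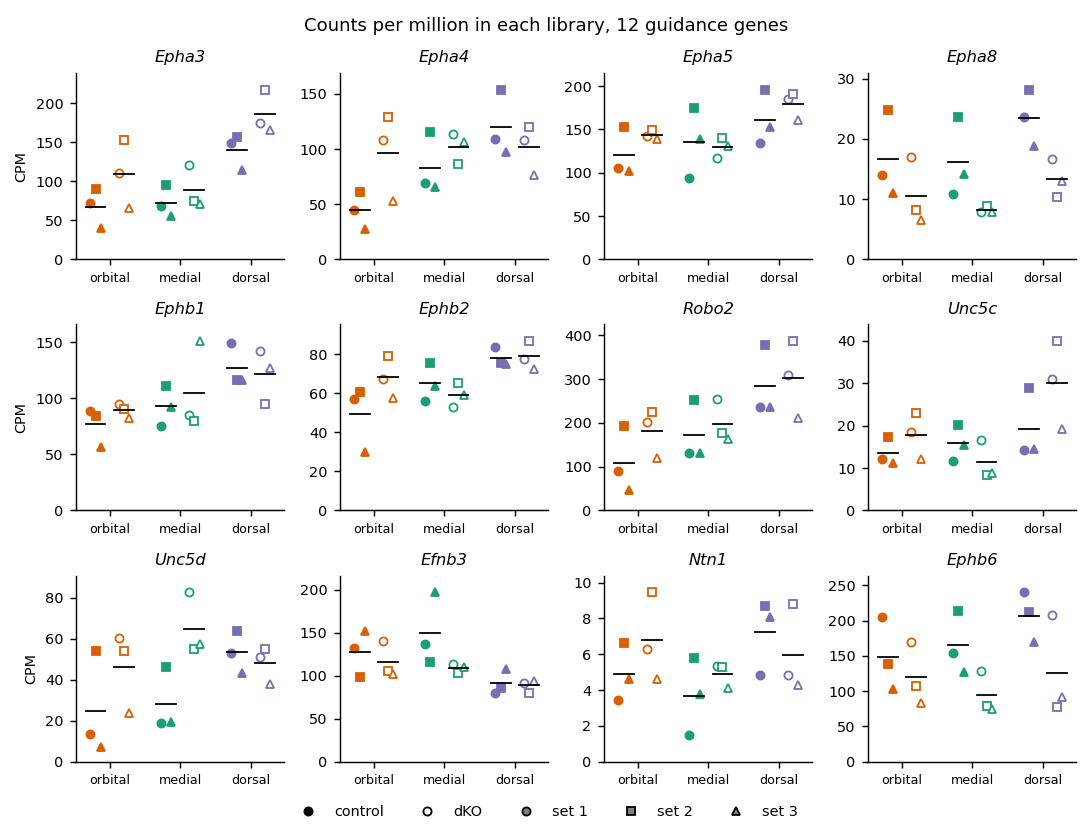
CPM (linear axis from 0) of 12 members in each library by region; filled symbols are control, open symbols dKO, symbol shape is the set and black bars are means of 3 libraries. The dorsal libraries of Epha3, at 114 to 217 CPM, lie above the medial and orbital libraries of their own rows, and Efnb3 has the opposite order, with dorsal libraries at 80.1 to 108 CPM.

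The remaining 21 members passed in none of the 10 comparisons. Robo1, the other abundant Slit receptor, was at 256, 207 and 135 CPM in dorsal control, 255, 126 and 145 in dorsal dKO, 144, 294 and 188 in medial control and 210.1, 163 and 179 CPM in medial dKO libraries, and at 113, 195 and 46.004 and 276, 237 and 131 CPM in orbital control and dKO libraries. Its lowest library was the orbital control of set 3. Draxin, a secreted chemorepellent of callosal axons, lay between 22.2 and 82.8 CPM, and Epha7, an ephrin-A receptor of frontal and occipital cortex, between 75.4 and 168 CPM, across the 18 libraries. Efna1, an ephrin-A ligand of vessels and other tissues, was higher in the orbital than in the dorsal library of 6 of 6 rows, without passing (0.49, SE 0.19, adjusted p = 0.112). Efna2 was lowest in the 3 dKO libraries of set 1, at 12.4 to 21.3 CPM, and at 29.8 to 55.1 CPM in the other 15. Efna3 and Unc5a varied by 1.52 and 2.06 times between lowest and highest library. Ephb3 ran from 8.55 to 27.8 CPM, Ephb4, a receptor of veins, from 8.78 to 31.4 CPM, Efnb1 from 30.1 to 103 CPM and Rgma from 21.1 to 50.7 CPM. The synaptic netrin-G genes were under 1 FPKM by the median, Ntng1 at 1.98 to 8.18 CPM and Ntng2 at 0.729 to 6.12 CPM, as were Unc5b (1.16 to 6.72 CPM), Slit2 (2.57 to 26.03 CPM), Slit3 (0.183 to 10.6 CPM), Epha6 (0.844 to 5.51 CPM) and Epha10 (0.795 to 5.01 CPM). Epha2 stayed at or under 1.4 CPM, Epha1 at or under 0.752 CPM and Robo3 at or under 0.425 CPM.

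Averaged over both genotypes, 0 of 40 members passed with edgeR between medial and orbital cortex, beside 0.315% of all genes, and at an unadjusted p under 0.05 there were 7 members (6 higher in medial) beside 14.5% of all genes. DESeq2 called 3 members, all higher in medial cortex (Dcc, Epha4 and Robo2), beside 5.6% of all genes. Dcc (18:71258738-72351069, minus strand), the attractive netrin-1 receptor, was at 27.8, 22.1 and 15.6 CPM in medial control and 55.01, 36.999 and 28.9 CPM in medial dKO libraries. Orbital libraries held 9.47, 21.5 and 2.01 CPM in controls and 52.3, 30.2 and 12.2 CPM in dKO, and dorsal libraries 20.8, 25.1 and 10.9 and 32.8, 22.3 and 11.6 CPM. The medial library was above the orbital one in 6 of 6 rows, by as little as 0.04 and as much as 2.93 on the log2 scale. The edgeR value for medial minus orbital was 0.98 (SE 0.25, adjusted p = 0.0871), and for Epha4 it was 0.58 (SE 0.15, adjusted p = 0.0893) and for Robo2 0.50 (SE 0.15, adjusted p = 0.124).

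The genes that work with these receptors, 65 in all and each tested, gave a wider view of the pathway. Partners called in medial minus dorsal numbered 10, with 3 higher and 7 lower, and in orbital minus dorsal 21, with 3 higher and 18 lower. Their median log2 difference was -0.12 in the first and -0.23 in the second, beside 0.02 over all genes. Hs6st2, a heparan sulphate 6-O-sulphotransferase that modifies the sugar chains Slits bind, had the lowest p in each, at -1.34 (SE 0.12, adjusted p = 6.15e-05) in medial and -1.31 (SE 0.12, adjusted p = 7.85e-05) in orbital against dorsal cortex. Ablim1, an actin-binding protein linked to netrin signalling, was at -0.83 (adjusted p = 0.00109) and -1.23 (adjusted p = 7.85e-05). Bmpr1b, a BMP receptor that Rgm proteins act with, was at -1.25 (adjusted p = 0.00123) and -1.24 (adjusted p = 0.00093). Flrt2, a ligand of Unc5 receptors, was higher in medial cortex by 0.85 (SE 0.11, adjusted p = 0.000807), and Lmo4, a transcriptional regulator that marks cortical areas, was higher in orbital cortex by 1.07 (SE 0.17, adjusted p = 0.00206). Between medial and orbital cortex 0 partners passed with edgeR, with 7 at an unadjusted p under 0.05.

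Region differences were then read within each genotype, a reading added after the data were seen. Within control rows, 12 members were lower and 0 higher in orbital than in dorsal cortex, beside 15.8% of all genes called. These 12 were Robo2, Epha4, Epha3, Unc5d, Ephb2, Epha5, Ephb1, Robo1, Neo1, Ephb6, Dcc and Efnb2. Within dKO rows, 0 of 40 passed with edgeR, beside 0.486% of all genes, and 9 members had an unadjusted p under 0.05 (6 lower), beside 7.26% of all genes. The median over the 40 members was -0.35 within control and -0.04 within dKO rows, and over all genes 0.03 and -0.00. Epha4 was at -1.58 (SE 0.21, adjusted p = 0.00147) within control and -0.16 within dKO rows. Unc5d was at -1.69 (SE 0.34, adjusted p = 0.00706) and -0.19, Robo2 at -1.65 (SE 0.21, adjusted p = 0.00117) and -0.80, and Robo1 at -1.03 (SE 0.30, adjusted p = 0.0341) and 0.25. Epha3 was at -1.23 within control and -0.87 within dKO rows. The control count rested in part on row 3: without it 3 members passed within controls, all lower (Epha3, Epha4 and Robo2), without control row 2 there were 8 (7 lower, and Efnb3 higher) and without control row 1 there were 10, all lower. Calls over all genes fell as well, from 2965 of 18730 to 923 of 19352 without row 3, 1430 of 19269 without row 2 and 2146 of 19130 without row 1.

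Medial and orbital cortex differed within controls in 6 members, all higher in medial, beside 9.02% of all genes. They were Epha4 (0.99), Dcc (1.45), Robo2 (0.84), Draxin (0.79), Rgmb (0.46) and Robo1 (1.06), as log2 differences. Within dKO rows 0 passed with edgeR beside 0.016% of all genes, and 4 had an unadjusted p under 0.05 (1 higher) beside 7.29%. For medial minus dorsal, 1 member passed within controls (Efnb3, 0.65, SE 0.13, adjusted p = 0.0396) beside 0.491% of all genes. Within dKO rows 3 passed, all lower (Unc5c at -1.44, Epha3 at -1.14 and Epha5 at -0.53), beside 2.09% of all genes. Epha3 within controls was at -1.01 with an adjusted p of 0.051. Without control row 3 no member passed between medial and orbital cortex within controls, without control row 2 there were 2 and without control row 1 there were 8. Beside these, 724 of 19352, 607 of 19269 and 1219 of 19130 genes passed, against 1690 of 18730 with every row. For medial minus dorsal, leaving out any 1 row gave 0 calls within controls and 0 or 1 (Unc5c) within dKO rows.

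**Figure D4:**
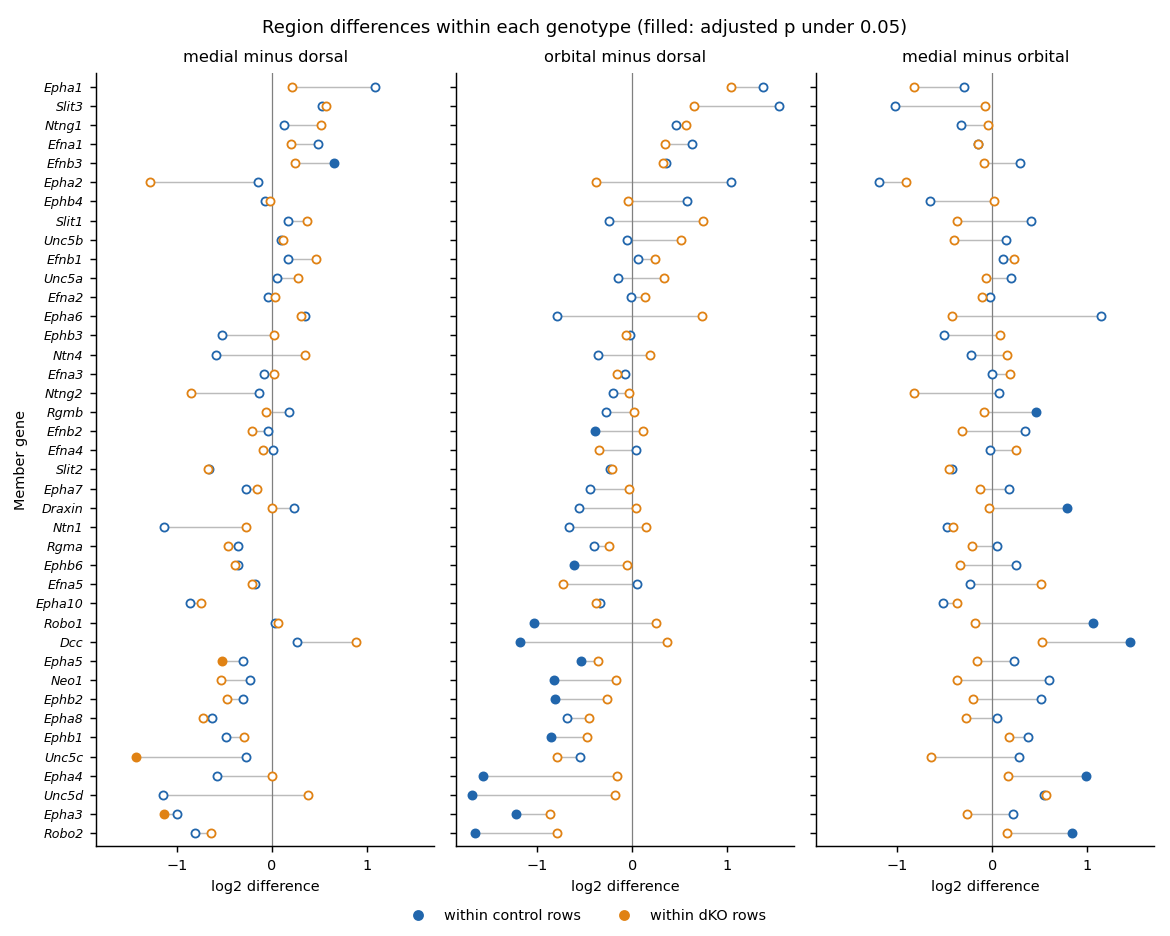
Log2 region differences of the 40 members within control rows (blue) and within dKO rows (orange), in 3 panels; filled points have an adjusted p under 0.05. In the orbital minus dorsal panel 12 blue points are filled and no orange one is, and Epha4 lies at -1.58 in blue and -0.16 in orange.

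Whether a region difference itself differed between genotypes was tested by the interaction, and no member passed in any of the 3. For the dKO effect in orbital minus that in dorsal cortex, edgeR called 0 of 40 members and 0% of all genes. An unadjusted p under 0.05 was seen for 13 members (12 positive) beside 12.6% of all genes, and DESeq2 called 2 (Epha4 and Unc5d) beside 2.23%. Epha4 had a difference of 1.41 (SE 0.30, adjusted p = 0.154), Unc5d one of 1.51 (SE 0.47, adjusted p = 0.243) and Efna5 one of -0.78 (SE 0.24, adjusted p = 0.243). The median over the members was 0.27, beside -0.01 over all genes. Over the alternatives the adjusted p of Epha4 ranged from 2.66e-05 with no filter on low counts to 0.917, and its value from 1.26 to 1.58.

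For the dKO effect in medial minus that in orbital cortex, 0 of 40 members passed with edgeR beside 1.47% of all genes. At an unadjusted p under 0.05 there were 15 members (14 negative) beside 20.6% of all genes, and DESeq2 called 6 (Draxin, Efna5, Efnb2, Rgmb, Robo1 and Unc5c) beside 12.1%. Efnb2 was at -0.67 (SE 0.17, adjusted p = 0.0632), Rgmb at -0.55 (SE 0.16, adjusted p = 0.0945) and Efna5 at 0.75 (SE 0.24, adjusted p = 0.106). Leaving out control row 1 gave 8 calls, all negative, while calls over all genes went from 275 of 18730 to 1472 of 19130. Leaving out dKO row 3 gave 2, beside 421 of 19375 genes. Among the partners, 4 passed and all were negative: Flrt2 at -1.502 (SE 0.22, adjusted p = 0.0184), Tubb3, a neuronal tubulin that binds Dcc, at -0.72 (adjusted p = 0.0303), Mapt, a microtubule protein, at -0.87 (adjusted p = 0.0353) and Flrt3 at -0.81 (adjusted p = 0.0492). The member median was -0.32 and the partner median -0.41, beside 0.01 over all genes.

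For the dKO effect in medial minus that in dorsal cortex, edgeR called 0 members and 0% of all genes, 5 members had an unadjusted p under 0.05 beside 5.17% of all genes, and DESeq2 called 0 members beside 0.326%. The lowest p values belonged to Unc5c at -1.17 (SE 0.32, adjusted p = 0.576), Unc5d at 1.53 (SE 0.46, adjusted p = 0.743) and Ntn4 at 0.94 (SE 0.29, adjusted p = 0.759). Their libraries, given above, show Unc5c highest in dorsal dKO and Unc5d lowest in medial and orbital controls of sets 1 and 3.

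The double mutation was next compared with control within each region. In medial cortex 1 of 40 members passed, beside 2.08% of all genes, and it was Ephb6 (6:41605482-41620509, plus strand), the kinase-inactive B-class receptor. Medial control libraries held 154, 214 and 127 CPM and medial dKO libraries 129, 78.2 and 74.997 CPM. In dorsal cortex the values were 239.8, 212 and 169 CPM in control and 208, 76.9 and 91.2 CPM in dKO, and in orbital cortex 205, 138 and 103 and 169.9, 107 and 82.9 CPM. The dKO library was below the control of its set in 9 of 9 pairs, while in each region the groups overlapped. Ephb6 fell by 0.98 on the log2 scale in medial cortex (SE 0.24, adjusted p = 0.0462). The dorsal value was -0.89 (SE 0.24, adjusted p = 0.43), and with the 3 regions of a row summed it was -0.74 (SE 0.19, adjusted p = 0.382).

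The Ephb6 call was lost under 9 of 13 alternatives: with RLE size factors, without the prefix term, with sex as a covariate, with the spread of the 6 medial libraries alone, and without medial dKO library 1, 2 or 3 or medial control library 2 or 3. Its value stayed between -1.23 and -0.60 over these, with an adjusted p from 0.00409 to 0.276. Set by set, the medial difference was -0.26, -1.45 and -0.76, the smallest in set 1. The medial dKO libraries also held more progenitor and cell cycle RNA. Of 8 progenitor markers 4 were higher, with sums of 179 to 235 CPM in medial control and 407 to 597 CPM in medial dKO libraries, and of 8 cell cycle markers 7 were higher, with sums of 70.8 to 111 and 233 to 391 CPM. Their part in the Ephb6 value was not tested.

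Other members with low p in medial cortex were Epha8, at -1.07 (SE 0.36, adjusted p = 0.14), and Efnb3, at -0.54 (SE 0.20, adjusted p = 0.204). For both genes the control and dKO libraries of medial cortex did not overlap, as given above. Nor did they for Rgmb, lower in dKO, or for Dcc, Efna4 and Unc5d, higher in dKO. The share of all genes without overlap was not counted in any region, so such lists say nothing about the members as a group. At an unadjusted p under 0.05 were 4 of 40 members, beside 2816 of all 18730 genes. These members were Ephb6, Epha8, Efnb3 and Efnb1, the last at 0.52. Efnb1 lies on the X chromosome, where sex differed between the groups. The median over the 40 members was -0.13, beside -0.00 over all genes. Of the partners 1 passed, Mapt, at -0.61 (SE 0.14, adjusted p = 0.0364), and their median was -0.24.

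**Figure D5:**
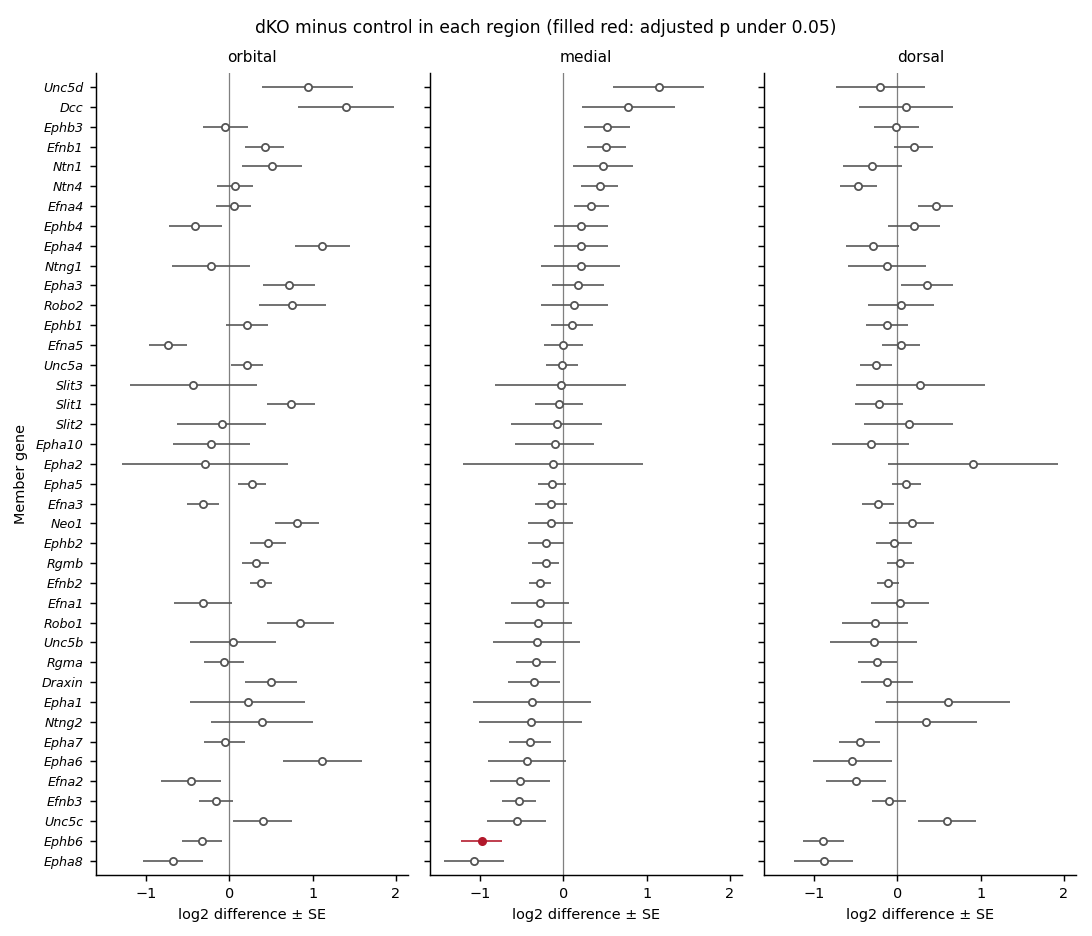
Log2 difference, dKO minus control (± SE), of the 40 members in orbital, medial and dorsal cortex; the red filled point has an adjusted p under 0.05. Ephb6 in medial cortex is the red point, at -0.98, and its dorsal value lies close to it at -0.89.

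In orbital cortex 0 of 40 members passed with edgeR, beside 0.0374% of all genes. At an unadjusted p under 0.05 there were 10 members, 9 higher and 1 lower in dKO, beside 13.9% of all genes, and DESeq2 called 1, Epha4, beside 2.3%. Leaving out any 1 orbital library left the edgeR count at 0. The median over the members was 0.22, beside -0.03 over all genes. Epha4 was at 1.12 (SE 0.32, adjusted p = 0.169), with the libraries given above showing the dKO library higher in each of the 3 sets. Neo1 was at 0.81 (SE 0.27, adjusted p = 0.212), likewise higher in 3 of 3 sets. Efna5 (17:62604184-62881317, minus strand), an ephrin-A ligand, was the member on the low side, at -0.73 (SE 0.23, adjusted p = 0.194). It was at 8.26, 12.7 and 17.3 CPM in orbital control and 5.61, 7.903 and 9.15 CPM in orbital dKO libraries. Medial control and dKO libraries held 6.72, 9.04 and 15.6 and 8.74, 10.6 and 12.8 CPM, and dorsal ones 7.81, 11.02 and 15.1 and 7.91, 16.4 and 12.3 CPM. In each orbital set the dKO library of Efna5 was below its control, and the groups overlapped. Members without overlap in orbital cortex were Ephb4, lower in dKO, and Efnb2, Rgmb and Slit1, higher in dKO, again without a count over all genes. The cell markers that moved with orbital control libraries are those given beside the region comparison: the mean neuron sum was 1801 CPM in orbital control and 2101 CPM in orbital dKO libraries, and the mean meningeal sum 1991 and 1315 CPM. Their part was not tested.

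Dorsal cortex gave 0 of 40 with edgeR beside 0.0214% of all genes, 4 at an unadjusted p under 0.05 (1 higher, 3 lower) beside 6.78%, and 0 with DESeq2 beside 0.344%. The lowest p values after Ephb6 were those of Epha8, at -0.88 (SE 0.35, adjusted p = 0.636), and Efna4 (3:89333390-89338028, minus strand), an ephrin-A ligand, at 0.46 (SE 0.21, adjusted p = 0.722). Efna4 was at 5.85, 6.39 and 6.58 CPM in dorsal control and 6.702, 11.7 and 8.92 CPM in dorsal dKO libraries. In medial cortex it was at 5.91, 6.603 and 6.98 and 7.44, 10.4 and 8.46 CPM, and in orbital cortex at 6.46, 6.43 and 7.96 and 5.85, 7.87 and 8.24 CPM. The dKO libraries were all above the controls in dorsal and in medial cortex. Also without overlap in dorsal cortex were Epha2 and Epha3, higher in dKO, and Epha8 and Ntn4, lower in dKO. The share of all genes without overlap was not counted here either. The member median was -0.11, beside -0.01 over all genes.

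With the 3 regions of each row summed, 0 of 41 members passed with edgeR, beside 0.0249% of all genes. Those with an unadjusted p under 0.05 were Ephb6 and Epha8, 2 members beside 9.03% of all genes, and DESeq2 called 0 beside 1.86%. Epha8 was at -0.86 (SE 0.27, adjusted p = 0.432) and Dcc at 0.73 (SE 0.34, adjusted p = 0.584). No partner passed in orbital, dorsal or summed cortex with edgeR, with 9, 1 and 3 at an unadjusted p under 0.05.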

How the data were processed

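Total RNA from 18 dissected pieces of mouse frontal cortex was made into SMART-seq v4 and Nextera XT libraries, per the labels' protocols. The authors deposited raw fragment counts per gene, made with STAR 2.6 and featureCounts 1.6.2 on GRCm38, per the submitters' processing notes and the file headers, which give paired and unstranded counting. Of the columns of that table, 6 matched no labelled sample and were not used. Symbols were known for 54409 of 54532 gene IDs.

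Counts were tested with edgeR 4.0.16 in R 4.3.3 (TMM size factors; genes kept by filterByExpr from a count of 10, or 15 in total; quasi-likelihood test). P-values were adjusted over all genes by Benjamini-Hochberg, with a threshold of 0.05. Genotype was compared with 6 group means and the title prefix, and region and interaction with the row as a block. DESeq2 1.42.0 and the other alternatives are given in the closing section. Fold changes are log2 with SE. CPM was used for values by library, and FPKM for levels between genes. Scripts were tested on simulated counts. The members, partners, markers and tests were chosen with earlier results of these data known. By rule, library values are given for members past the threshold, for those with the lowest p where fewer than 3 passed, and for the highest level of each role. Partners past the threshold are named up to 4 per comparison.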

Additional observations from a re-analysis of the deposited data

How the results depend on the processing

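No value of the named members changed sign under any alternative run: 371 values stayed on their side of the threshold, 88 lost and 24 gained a call. The 371 include results not called in the main fit that stayed uncalled, so they do not count calls kept. By result, calls were kept under from 2 of 12 alternatives (Epha8, orbital minus dorsal) to 11 of 12 (Epha3, each comparison with dorsal cortex). Counts of members called moved as follows, each beside the number of all genes called. Fits with no filter tested 34890 genes, DESeq2 fits 14009 to 19304 and the main 18-library fits 18730. For dKO minus control in orbital cortex (0, beside 7 genes), no filter on low counts and DESeq2 each gave 1, beside 122 and 430. In medial cortex (1, beside 389), RLE size factors gave 0 beside 377, no prefix term 0 beside 156 and sex as a covariate 0 beside 156. The spread of the region's own 6 libraries gave 0 beside 31, and leaving out 1 library gave 0 to 1 beside 67 to 362. Dorsal and summed counts stayed at 0 under every alternative, beside 2 to 62 and 3 to 359 genes. For medial minus dorsal (7, beside 772), no filter gave 13 beside 1679, no row term 1 beside 224 and control rows alone 1 beside 92. With dKO rows alone there were 3 beside 392, and leaving out 1 row gave 2 to 7 beside 226 to 772. For orbital minus dorsal (10, beside 2175), no row term gave 1 beside 330 and dKO rows alone 0 beside 91. Leaving out 1 row gave 4 to 9 beside 478 to 2115. For medial minus orbital (0, beside 59), no filter gave 5 beside 938, DESeq2 3 beside 927 and control rows alone 6 beside 1690. Leaving out 1 row gave 0 to 1 beside 1 to 242. The interactions (0 each) gave, for medial against dorsal (beside 0), 2 with no filter beside 72. For orbital against dorsal (beside 0) they gave 6 with no filter beside 578 and 2 with DESeq2 beside 313. For medial against orbital (beside 275) they gave 10 with no filter beside 1600 and 6 with DESeq2 beside 1692. When 1 row was left out they gave 0 to 8 beside 0 to 1472. The cause of these moves was not tested. With the set of a control and a dKO row as a block, the counts for orbital, medial, dorsal and summed cortex stayed at 0, 1, 0 and 0. Beside these, 14, 662, 6 and 6 of all genes were called. The SE of the medial dKO value was 0.20 for Efnb3 and 0.36 for Epha8. Both values, given above, were well over their SE and did not pass. Differences well above 1 SE could therefore go uncalled with 3 libraries a group. Robo3 and Epha1 had at most 39 and 36 fragments in a library.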
